A study of Homo sapiens with 40 samples.

Results

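Small nucleolar RNA (snoRNA) host genes were followed across breast epithelial and breast cancer cells in which TGFβ signaling or the transcription factor SLUG had been perturbed. The members were the genes whose GENCODE symbol is SNHG followed by a number (28 genes), together with GAS5, ZFAS1, EPB41L4A-AS1 and DANCR, which gave 32 of the 60708 genes counted. RNA was sequenced from 24 libraries, with 3 libraries in each of 8 groups. MI-spheres were 3D cultures of MCF-10A, a non-transformed mammary epithelial line, and MII-spheres were 3D cultures of MCF-10AneoT, its derivative carrying oncogenic HRAS. Both were grown in ultra-low attachment plates and either left unstimulated (Ctrl) or given TGFβ1 at 2.5 ng/ml for 16 h. MDA-MB-231, a mesenchymal breast cancer line grown as a monolayer in serum, gave the WT and SLUG KO groups, the latter from single-cell clones edited with Cas9 in exon 1 of SNAI2, the gene for SLUG. In a separate sequencing batch MDA-MB-231 cells had received a scramble siRNA (Csi) or siRNAs against SMAD2, SMAD3 and SMAD4 (siSMAD2/3/4). The labels only number the libraries of a group, while the study's statistics section describes its results in general as coming from independent biological repeats. The p-values measure the spread between the 3 libraries of each group.

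snoRNAs are short nucleolar RNAs that guide the chemical modification and processing of ribosomal RNA: box C/D snoRNAs direct 2′-O-methylation and H/ACA snoRNAs direct pseudouridylation. In human cells most of them are cut out of introns, so each needs a host transcript to be made and spliced. Many hosts code for ribosomal or other translation proteins, but the SNHG genes, GAS5, ZFAS1, EPB41L4A-AS1 and DANCR make spliced RNAs with little or no coding capacity, several of which are degraded by nonsense-mediated decay during translation. Part of this family starts with a 5′ terminal oligopyrimidine (TOP) tract, the feature through which ribosomal protein mRNAs respond to growth signals, and GAS5 was named for its accumulation in growth-arrested cells.

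All 32 members were annotated as long non-coding RNA (lncRNA) genes, and RefSeq placed a snoRNA or the related scaRNA inside 30 of them, all but SNHG27 and SNHG28. GAS5 lies on chromosome 1 at 173858559 to 173868882 on the minus strand (GRCh38) and holds 11 snoRNAs in RefSeq. ZFAS1 lies on chromosome 20 at 49278178 to 49299600 on the plus strand, runs against the start of ZNFX1 and hosts the 3 SNORD12 snoRNAs. SNHG14 lies on chromosome 15 at 24978583 to 25420336 on the plus strand, in the imprinted Prader-Willi region, and hosts 83 snoRNAs in RefSeq, chiefly the SNORD115 and SNORD116 clusters. Several members are close neighbours: SNHG3 and SNHG12 on chromosome 1, SNHG9 and SNHG19 on chromosome 16, and SNHG17 and SNHG11 on chromosome 20. Strand was ignored in counting, so exons shared with a gene on the other strand make a count uncertain: they covered 56.4% of the counted length of EPB41L4A-AS1, 37.6% of SNHG8, 36.4% of ZFAS1, 34.1% of SNHG21, 30.6% of SNHG16, 30.3% of SNHG7, 29.3% of SNHG6 and 21.2% of SNHG28.

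A TOP tract is a run of C and T that begins with C at the first transcribed base. The start of the transcript is shown for every member whose RefSeq start is C with a run of at least 5 pyrimidines. SNHG18, one of these, was not tested in spheres. GAS5, SNHG29 and SNHG16 are shown beside them, and the other members with a RefSeq entry are not shown. Each line gives 10 bases before and 20 bases from the RefSeq start (GRCh38.p14), with the run of C or T that begins at the start in capitals.
SNHG5 (chr6:85678714-85678743, minus strand): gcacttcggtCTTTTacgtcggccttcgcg
SNHG12 (chr1:28581854-28581883, minus strand): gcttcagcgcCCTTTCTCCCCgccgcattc
SNHG19 (chr16:2155339-2155368, minus strand): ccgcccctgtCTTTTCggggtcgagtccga
ZFAS1 (chr20:49278632-49278661, plus strand): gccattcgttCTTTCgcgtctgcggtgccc
SNHG4 (chr5:139274091-139274120, plus strand): ctcccggctgCCCTTTCCCCTCCggcctct
SNHG32 (chr6:31834906-31834935, plus strand): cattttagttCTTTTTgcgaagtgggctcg
SNHG18 (chr5:9546190-9546219, plus strand): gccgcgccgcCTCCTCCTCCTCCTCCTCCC
GAS5 (chr1:173869026-173869055, minus strand): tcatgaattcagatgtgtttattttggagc
SNHG29 (chr17:16438977-16439006, plus strand): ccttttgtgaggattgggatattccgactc
SNHG16 (chr17:76557754-76557783, plus strand): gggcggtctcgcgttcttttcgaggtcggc
The first 7 windows start with C and an unbroken run of at least 5 pyrimidines. These were the only members with such a start among the 28 that had a RefSeq entry (25%), against 4.07% of 35116 RefSeq starts and 55.8% of 86 ribosomal protein genes. GAS5, SNHG29 and SNHG16 have no run at the annotated base, which describes the annotation only. The letters CACGTG, an E-box, were found on either strand within the 300 promoter bases of SNHG7 and SNHG30, 7.14% of the members with an entry against 7.26% of all promoters.

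Between 14124688 and 38406952 fragments were counted per library. The members took 0.0679% to 0.189% of them in the batch of 18 sphere, WT and SLUG KO libraries and 0.0534% to 0.0594% in the siRNA batch, and levels are therefore compared only within a batch. CPM values here are counts divided by library size after TMM scaling within a batch. HRAS stood at 214 to 221 CPM in unstimulated MII-spheres against 39.2 to 41.0 CPM in MI-spheres. Epithelial CDH1 stood at 515 to 584 CPM in unstimulated spheres and at 0.775 to 1.58 CPM in WT cells, and mesenchymal VIM at 1.57 to 2.83 and 591 to 953 CPM. The leukocyte marker PTPRC did not exceed 0.581 CPM in any library, while PECAM1, an endothelial marker, reached 105.3 CPM in MII-spheres. WT replicate 2 stood apart: its log2 CPM correlated across genes with the other WT libraries at r = 0.931 and 0.924, where those correlated at 0.995 and all other replicate pairs at 0.996 or more. Fold-changes of members against WT are given with and without it, and mean levels of WT include it.

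GAS5 and SNHG29 were the most abundant members of the spheres, and per kilobase of counted exon the short SNHG19 stood beside them. In unstimulated MI-spheres the level of SNHG19 was 80.8 CPM per kb, of GAS5 64.2 and of SNHG29 62.1, followed by SNHG6, the host of SNORD87, at 23.7 and ZFAS1 at 23.0. In unstimulated MII-spheres GAS5 reached 71.2 and SNHG29 30.02 CPM per kb. In MDA-MB-231 cells labelled WT, SNHG1, the host of a row of SNORD snoRNAs, led at 32.04 CPM per kb, with GAS5 at 23.6. In WT replicate 2, which these means include, SNHG1 stood at 45.9 CPM against 152 and 184 CPM in the other WT libraries. SNHG32, the host of SNORD48 and SNORD52, led in Csi cells at 20.4 CPM per kb. Between 20 and 25 members averaged at least 5 CPM in each group, and 4 to 7 members averaged under 1 CPM. SNHG28 did not exceed 0.138 CPM or SNHG31 1.07 CPM in any library, and SNHG27 did not exceed 0.554 CPM in any library but WT replicate 2. SNHG9 and SNHG25, with counted exons under 600 bases, stayed at or below 0.251 CPM in the separately scaled siRNA batch.

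**Figure D1:**
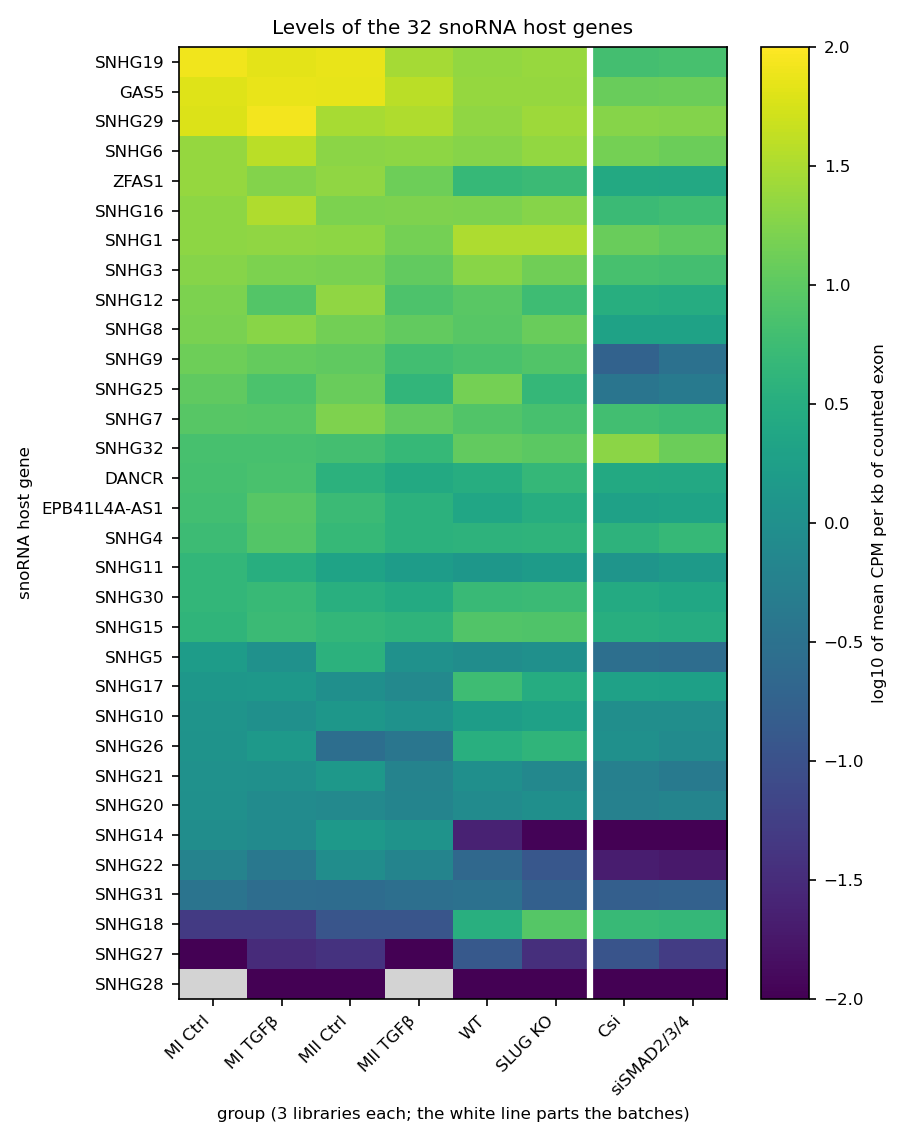
Mean level of the 32 snoRNA host genes in the 8 groups, as the log10 of CPM per kilobase of counted exon (colour, n = 3 libraries a group), ordered by unstimulated MI-spheres. The colour scale ends at 0.01 and 100 CPM per kb, grey marks a mean of 0, and columns on either side of the white line were scaled separately. SNHG14 stands at 0.81 CPM per kb or more in spheres and at 0.024 or less in MDA-MB-231 cells, and SNHG18 the other way at 0.12 or less and 3.35 or more.

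TGFβ lowered most snoRNA host genes in MII-spheres. Of the 29 members that passed the low-count filter (all but SNHG18, SNHG27 and SNHG28), 20 fell and 1 rose at an adjusted p under 0.05, against 27.6% of all 16396 genes tested that fell and 29.9% that rose. The members' median log2 fold-change was -0.41, with -0.018 over all genes tested. Their summed level went from 1661 to 1686 CPM in the 3 Ctrl libraries to 1182 to 1218 CPM in the 3 TGFβ libraries. In bulk RNA a smaller share of cells expressing a gene and less RNA per cell cannot be told apart.

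The deepest fall was that of SNHG5, the host of the SNORD50 snoRNAs. Its level was 47.1, 45.3 and 50.2 CPM in Ctrl and 13.3, 12.5 and 13.7 CPM in TGFβ libraries. The groups lay far apart, and SNHG5 fell 3.65-fold (log2 fold-change -1.87 ± 0.075 SE, adjusted p = 8.47e-28). SNHG12, which hosts H/ACA snoRNAs and SNORD99, went from 92.4, 92.2 and 94.7 to 32.9, 32.01 and 31.9 CPM, and fell 2.93-fold (-1.55 ± 0.056). Both groups of SNHG12 libraries were tight and far apart. SNHG19, the host of SNORD60, went from 21.8, 24.7 and 28.5 to 9.84, 10.9 and 8.56 CPM (-1.38 ± 0.099). GAS5 went from 344, 341 and 349 to 194, 181 and 186 CPM, a fall of 1.87-fold (-0.90 ± 0.037, adjusted p = 2.91e-27). GAS5 alone thus accounted for the largest loss in CPM of any member, with no overlap between its groups. ZFAS1 went from 184, 182 and 176 to 109.1, 105.6 and 115.4 CPM (-0.74 ± 0.042), again without overlap.

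The other falls in MII-spheres were smaller or concerned low genes. SNHG7, SNHG1 and SNHG3 fell by 0.64, 0.55 and 0.54 on the log2 scale (fold decreases of 1.55, 1.46 and 1.46). EPB41L4A-AS1, the host of SNORA13, DANCR, the host of SNORA26, and SNHG17, the host of SNORA71 snoRNAs, had log2 fold-changes of -0.52 ± 0.088, -0.46 ± 0.066 and -0.41 ± 0.11. SNHG8, SNHG32, SNHG11, SNHG4, SNHG14 and SNHG15 lay between -0.41 and -0.24, with SNHG11 and SNHG15 overlapping between the groups. SNHG25 (-1.53 ± 0.25), SNHG21 (-1.16 ± 0.38) and SNHG9 (-0.80 ± 0.18) fell from means under 6 CPM, SNHG21 with groups that overlapped. SNHG21 passed the low-count filter through its Ctrl group, with 30, 50 and 11 counts there and 8, 8 and 13 with TGFβ. Its direction was thus largely set by the filter, and it is among the falls counted above. SNHG21 was not called without MII Ctrl replicate 1 or 2 (adjusted p = 0.0674 and 0.0735), SNHG15 without MII Ctrl replicate 2 or TGFβ replicate 1 or 2 (0.138 to 0.242) and SNHG11 without MII Ctrl replicate 1 or 3 or TGFβ replicate 2 (0.0556 to 0.107). SNHG29, which hosts SNORD49A, SNORD49B and SNORD65, was the member that rose, from 213, 221 and 212 to 238, 239 and 240 CPM (0.13 ± 0.037, adjusted p = 0.00291), a difference of 1.09-fold outside the spread of the libraries. SNHG16 (0.028 ± 0.048) and SNHG6 (0.079 ± 0.076) overlapped between the groups and were not called. SNHG10, SNHG20, SNHG22, SNHG26, SNHG30 and SNHG31 did not pass the test either.

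In MI-spheres the same stimulus moved the members in both directions. Of the 29 that passed the filter, 9 rose and 9 fell, against 28.7% of all 16863 genes tested that rose and 27.4% that fell. Their median log2 fold-change was -0.12, with -0.016 over all genes tested. The members' summed level was 1822 to 1894 CPM in Ctrl and 1998 to 2246 CPM in TGFβ libraries.

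SNHG6 rose most. Its level went from 28.4, 29.96 and 30.3 CPM in Ctrl to 50.5, 46.1 and 49.7 CPM with TGFβ, 1.56-fold (0.65 ± 0.066, adjusted p = 4.72e-08). SNHG4, the host of SNORA74 snoRNAs, went from 22.5, 26.9 and 23.6 to 35.2, 37.2 and 42.2 CPM (0.58 ± 0.082). SNHG16, the host of the SNORD1 snoRNAs, went from 111.7, 115.1 and 112.7 to 175, 166 and 189 CPM (0.56 ± 0.053). None of these members overlapped between Ctrl and TGFβ, and SNHG16 had the tightest Ctrl group. EPB41L4A-AS1 went from 23.6, 22.8 and 26.02 to 34.3, 30.4 and 40.5 CPM (0.46 ± 0.088). SNHG29 went from 440, 429 and 469 to 599, 581 and 676 CPM, 1.31-fold (0.39 ± 0.056). Both ranges were separate, and SNHG29 gained more CPM than any other member. SNHG26, SNHG15, SNHG8 and GAS5 rose by less, GAS5 from 307, 313 and 311 to 344, 340 and 392 CPM (0.13 ± 0.054, adjusted p = 0.0461), with 1 TGFβ library well above the others. The call of GAS5 was lost without any 1 MI Ctrl library or TGFβ replicate 3 (adjusted p from 0.0537 to 0.106), without a low-count filter (0.112) and with at least 10 counts in every library (0.12). SNHG26 (adjusted p = 0.0469) was not called without MI Ctrl replicate 1 or 2 or TGFβ replicate 1 (0.0788 to 0.243).

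The fall of SNHG12 in MI-spheres was the largest there. It went from 70.6, 68.8 and 68.3 CPM to 33.5, 37.9 and 38.1 CPM, 2.00-fold lower (-0.997 ± 0.064, adjusted p = 3.65e-11), with no overlap. SNHG5 went from 20.6, 20.9 and 19.5 to 12.7, 13.6 and 13.2 CPM (-0.70 ± 0.085), and SNHG11, the host of SNORA60, from 20.8, 18.99 and 20.2 to 15.1, 14.5 and 13.8 CPM (-0.55 ± 0.086). ZFAS1 went from 185, 190 and 199 to 151, 150 and 157 CPM (-0.40 ± 0.051). SNHG19 went from 27.5, 29.2 and 26.2 to 22.3, 22.4 and 24.7 CPM (-0.33 ± 0.075). Each of these genes was also lower in MII-spheres. SNHG25, SNHG20, SNHG3 and SNHG14 fell as well, by 0.57, 0.33, 0.29 and 0.23 on the log2 scale. SNHG20 lost its call without any 1 of the 6 libraries (adjusted p from 0.0524 to 0.218), and SNHG25 without MI Ctrl replicate 1 or 3 or TGFβ replicate 3 (0.0767 to 0.0874). DANCR (0.018 ± 0.062), SNHG1 (-0.037 ± 0.059) and SNHG7 (-0.13 ± 0.070) overlapped between the groups in MI-spheres and were not called. SNHG9, SNHG10, SNHG17, SNHG21, SNHG22, SNHG30, SNHG31 and SNHG32 were not called in MI-spheres.

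**Figure D2:**
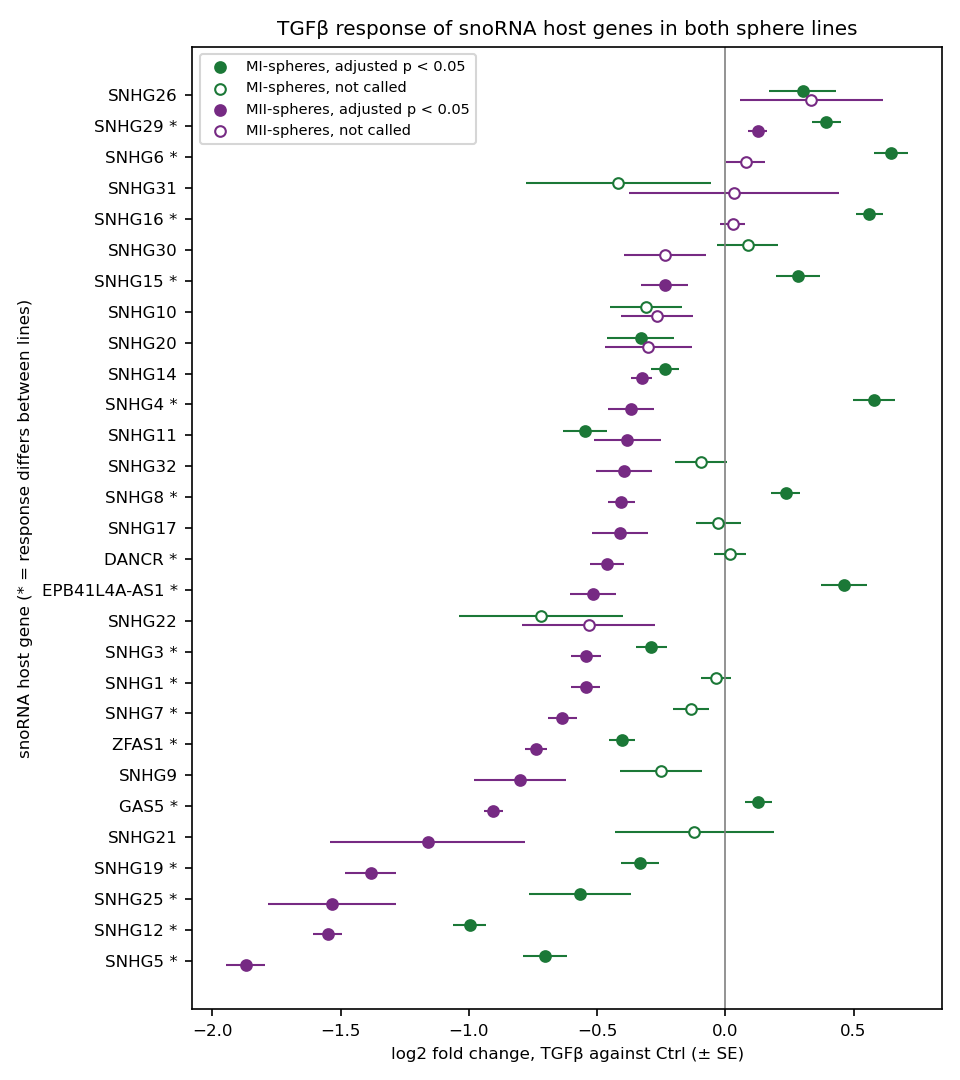
TGFβ response (log2 fold-change against Ctrl, horizontal bars ± SE, n = 3 against 3) of the 29 members tested in MI-spheres (green) and MII-spheres (purple), with open circles for responses not called. The MII value lies to the left of the MI value for 23 members, and an asterisk marks the 17 members whose responses differed between the lines.

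Whether the response differed between the lines was tested as an interaction in 1 fit of the 12 sphere libraries. In 17 of 29 members tested the MII response lay below the MI response at an adjusted p under 0.05 and in 0 above it, against 9.75% of all 18591 genes below and 12.6% above. By edgeR 0 members lay above at an unadjusted p under 0.05 either, and DESeq2 called 16 below and 0 above. The shares of all genes for these further counts are not given. SNHG5 differed most, by -1.16 ± 0.11 (adjusted p = 1.85e-10): TGFβ took both lines to about the same level, but unstimulated MII-spheres started higher. SNHG19 differed by -1.04 ± 0.13 and GAS5 by -1.02 ± 0.066 (adjusted p = 2.43e-15). GAS5, EPB41L4A-AS1 (-0.97 ± 0.13), SNHG4 (-0.94 ± 0.13), SNHG8 (-0.63 ± 0.077) and SNHG15 (-0.51 ± 0.13) were called higher in MI- and lower in MII-spheres, though the MI call of GAS5 and the MII call of SNHG15 were lost under the alternatives named above. The interaction of GAS5 kept its call under every alternative run. SNHG14, the most abundant member not called, had an interaction of -0.081 ± 0.070. Across the 29 members the responses of the lines, which share no library, correlated with Pearson's r = 0.63 and Spearman's rho = 0.55, a description over genes that are not independent replicates.

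**Figure D3:**
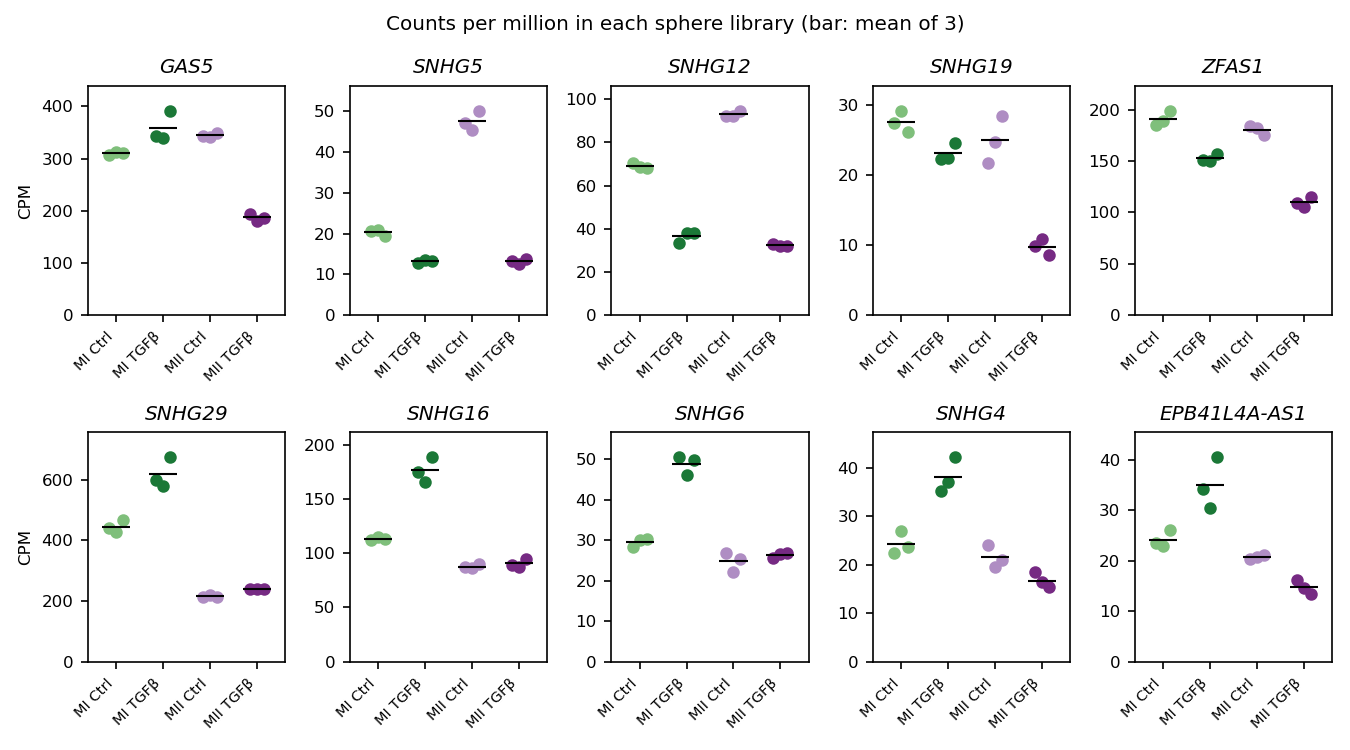
CPM (vertical axes from 0) of 10 members in each of the 12 sphere libraries, with a bar at the mean of 3. GAS5, SNHG4 and EPB41L4A-AS1 are higher with TGFβ in MI- and lower in MII-spheres, while SNHG12 ends near 32 to 38 CPM in both lines.

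The fall of the members in MII-spheres was set beside other gene lists, all chosen with earlier results of these data known. All lncRNA genes, which include the members, also fell more often than they rose: 47.0% of 2515 fell and 3.06% rose in MII-spheres, and 38.8% of 2618 fell and 6.07% rose in MI-spheres. Their share of counted fragments went from 3.08% to 3.18% in unstimulated MII libraries to 1.67% to 1.76% with TGFβ, and from 2.33% to 2.46% to 1.32% to 1.59% in MI libraries, and its part in the members' result was not tested. Of the members 69.0% fell in MII-spheres, and 31.0% rose in MI-spheres. At the median lncRNA genes changed by -0.61 (MII) and -0.55 (MI) on the log2 scale, below the members' medians. Short genes, with counted exons under 600 bases, fell in 40.3% of cases in MII-spheres and 39.0% in MI-spheres, and SNHG9, SNHG19 and SNHG25 belong to them. The basal markers KRT5, KRT14 and TP63 rose with TGFβ in both lines, KRT5 from 103.5 to 108.4 CPM to 560 to 595 CPM in MI- and from 18.03 to 19.9 to 190 to 201 CPM in MII-spheres, and their part in the members' result was not tested.

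Among protein-coding hosts of snoRNAs rises were more frequent than falls, as they were among all protein-coding genes, of which 35.1% rose and 24.2% fell in MI-spheres and 37.3% and 22.4% in MII-spheres. All 28 ribosomal protein genes that host a snoRNA rose with TGFβ, by 0.49 (MI) and 0.28 (MII) on the log2 scale at the median. Of the other protein-coding hosts, 55 of 114 tested rose and 19 fell in MI-spheres, and 48.2% rose and 17% fell in MII-spheres. The genes for proteins that coat snoRNAs or assemble the particles (snoRNP genes) were also higher: 17 of 18 rose in MI-spheres, and 12 rose and 1 fell in MII-spheres. FBL, the methyltransferase of box C/D particles, had log2 fold-changes of 0.59 ± 0.055 and 0.46 ± 0.070 in MI- and MII-spheres. DKC1, the pseudouridine synthase of H/ACA particles, had 0.65 ± 0.059 and 0.31 ± 0.059. NAF1, an H/ACA assembly factor, was the gene that fell in MII-spheres (-0.73 ± 0.15). Of 10 nonsense-mediated decay genes, 5 fell in MI- and 7 in MII-spheres. UPF1, the central helicase of that pathway, had -0.22 ± 0.059 and -0.21 ± 0.045, and the kinase SMG1 -0.27 ± 0.058 and -0.48 ± 0.042.

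The 7 members with a TOP-like start were compared by description with the others. SNHG18 was not tested in spheres. Their other 6 all fell in MII-spheres, with a median of -1.06 on the log2 scale. In MI-spheres 4 of these fell and SNHG4 rose, with a median of -0.37. The 19 tested members with another annotated start had medians of -0.41 and -0.037, with 11 falls and 1 rise in MII- and 4 falls and 6 rises in MI-spheres. SNHG5, SNHG12, SNHG19 and ZFAS1, 4 of the 5 members with the deepest falls at 5 CPM or more in MII-spheres, were among the 6. GAS5 was placed with the others by its RefSeq start, which lies outside the GAS5 span that was counted. That placing describes the annotation only. TOP-like starts were more frequent among ribosomal protein genes (55.8% of 86), of which the 28 that host a snoRNA all rose in both lines. The part of the start in the responses was not tested. Leaving aside the members with over 20% of their counted length on the other strand of another gene, 15 of 22 tested members fell and 1 rose in MII-spheres, and 8 fell and 5 rose in MI-spheres.

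Few of the hosted snoRNAs could be set beside their hosts, since only 8 or 9 snoRNA genes inside members passed the filter in the sphere comparisons. The count of such a gene can hold mature snoRNA and unspliced host RNA, and reads that lie in both a snoRNA and a host exon were counted for neither. The ZFAS1 snoRNAs are shown because SNORD12C moved most clearly, read on the plus strand of GRCh38 with the letters of box C (TGATGA) and box D (CTGA) in capitals.
SNORD12C (chr20:49278940-49279028, plus strand): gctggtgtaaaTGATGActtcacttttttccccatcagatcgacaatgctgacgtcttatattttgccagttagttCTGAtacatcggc
SNORD12B (chr20:49280319-49280409, plus strand): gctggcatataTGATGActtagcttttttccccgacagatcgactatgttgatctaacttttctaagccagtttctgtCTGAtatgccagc
SNORD12 (chr20:49280683-49280772, plus strand): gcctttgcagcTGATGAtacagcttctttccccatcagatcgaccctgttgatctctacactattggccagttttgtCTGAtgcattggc
SNORD12C fell in both lines, by 1.85 ± 0.13 on the log2 scale in MI- and 2.02 ± 0.13 in MII-spheres, while ZFAS1 fell by 0.40 and 0.74. SNORD104, in SNHG25, fell by 0.54 and 1.29 beside falls of 0.57 and 1.53 of its host. SNORA74A went the other way from SNHG4: it had -0.80 ± 0.13 in MI- and 0.41 ± 0.14 in MII-spheres, where SNHG4 had 0.58 and -0.37. SNORA73B, in SNHG3, had the most counts of these genes (507896 over the 24 libraries) and was not called in either line (-0.071 ± 0.056 and -0.075 ± 0.044). SNORD99, in SNHG12, had -0.76 ± 0.38 in MI-spheres (not called) and -2.01 ± 0.41 in MII-spheres, on 407 counts over the 24 libraries. SNORD12B had -4.55 ± 0.82 in MI-spheres, on 83 counts over the 24 libraries, and was not tested in MII-spheres. With so few counts it can have passed the low-count filter only through Ctrl, so the direction of SNORD12B was set by the filter. SNORA13, SNORA74D and SNORA71B were not called in either line.

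Unstimulated MII- and MI-spheres were compared as well. Of 29 members tested, 6 (20.7%) were higher and 13 (44.8%) lower in MII-spheres, against 31.7% of all 17862 genes that were higher and 32.5% that were lower. Both directions together, the share of members called was near that of all genes. The log2 fold-change had a median of -0.16 over the members and 0.017 over all genes tested. These Ctrl libraries also serve as the reference of the TGFβ comparisons. SNHG5 was 2.34-fold higher in MII-spheres (1.23 ± 0.064, adjusted p = 6.09e-24), with the library values given above. SNHG7, the host of SNORA17 snoRNAs, stood at 47.2, 42.7 and 45.3 CPM in MI- and 78.9, 84.9 and 82.1 CPM in MII-spheres (0.87 ± 0.052). SNHG14 stood at 112.56, 111.96 and 109.03 CPM against 174, 165 and 172 CPM (0.62 ± 0.040). These ranges did not overlap. SNHG12 (0.43 ± 0.046) and GAS5 (0.16 ± 0.035) were also higher in MII-spheres.

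SNHG29 was lower in MII-spheres by 2.06-fold, from 440, 429 and 469 CPM to 213, 221 and 212 CPM (-1.04 ± 0.037, adjusted p = 1.82e-31). DANCR, an RNA named for holding back differentiation, stood at 68.1, 63.1 and 70.5 CPM in MI- and 38.6, 38.3 and 35.8 CPM in MII-spheres (-0.83 ± 0.056). SNHG11 stood at 20.8, 18.99 and 20.2 CPM against 10.8, 7.67 and 9.91 CPM (-1.11 ± 0.097). In none of these did the lines overlap. SNHG30, the host of SNORD7, stood at 6.94, 6.82 and 7.29 CPM against 6.11, 4.91 and 4.68 CPM (-0.43 ± 0.13), and SNHG20, the host of SCARNA16, at 5.95, 7.06 and 5.80 CPM against 4.73, 4.78 and 4.62 CPM (-0.40 ± 0.14, not called without MI Ctrl replicate 2, adjusted p = 0.073). SNHG26, the host of SNORD93, stood at 5.72 to 7.49 CPM in MI- and 1.38 to 2.12 CPM in MII-spheres, the largest difference among lower members (-1.93 ± 0.18). Of the ribosomal protein hosts 26 of 28 were lower in MII-spheres, with a median of -0.71, against 40.1% of all protein-coding genes that were lower.

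WT MDA-MB-231 cells differ from MI-spheres in line and in culture at once, which cannot be told apart. With all libraries 4 of 30 members tested were higher and 9 lower in WT cells, against 28.1% of all 18732 genes that were higher and 25.9% that were lower. Without WT replicate 2 the counts were 10 and 14, against 36.6% and 38.3% of all genes. SNHG14 was low in MDA-MB-231 cells: it stood at 4.27, 2.41 and 2.20 CPM in WT libraries and was 39.0-fold lower than in MI-spheres (-5.28 ± 0.31, adjusted p = 1.55e-05). The difference was -5.17 ± 0.16 without WT replicate 2. In the siRNA batch, too, SNHG14 did not exceed 1.43 CPM. SNHG18, the host of SNORD123 beside SEMA5A, passed the filter through the WT group alone, with 7.54, 4.997 and 7.09 CPM against 0.0381, 0.143 and 0.103 CPM in MI-spheres. SNHG18 is among the higher members in both counts above, and its direction there was set by the filter.

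Other members of the spheres were lower in WT cells, and a few were higher. ZFAS1 stood at 46.3, 19.9 and 54.9 CPM (4.91-fold lower, -2.30 ± 0.37, and 3.98-fold, -1.99 ± 0.085, without WT replicate 2). SNHG29 stood at 154, 100 and 210 CPM (-1.58 ± 0.28, and -1.37 ± 0.11 without the replicate) and SNHG11 at 4.54, 6.38 and 7.17 CPM (-1.79 ± 0.23, and -1.85 ± 0.15). SNHG19 stood at 9.12, 2.41 and 11.2 CPM (-1.91 ± 0.50, and -1.52 ± 0.11 without the replicate), where the replicate that stood apart was the low one. GAS5, EPB41L4A-AS1, SNHG12 and SNHG22 were lower too, GAS5 at 136, 43.99 and 163 CPM (-1.49 ± 0.44, and -1.13 ± 0.082 without WT replicate 2). SNHG22 passed the filter through the MI group, with 44, 39 and 24 counts there and 10, 16 and 16 in WT. Its direction was thus largely set by the filter, and it is among the lower members counted above. SNHG17 stood at 50.6, 102.2 and 46.7 CPM against 15.1 to 15.8 CPM in MI-spheres (2.03 ± 0.32, and 1.57 ± 0.086 without WT replicate 2), here with that replicate the highest. SNHG26 stood at 21.0, 16.1 and 21.7 CPM (1.51 ± 0.21, and 1.62 ± 0.12 without WT replicate 2) and SNHG15, the host of SNORA9, at 35.1, 23.6 and 38.2 CPM against 15.3 to 17.5 CPM in MI-spheres (0.93 ± 0.23, and 1.095 ± 0.092 without it). GAS5 and SNHG12 lost their call without any 1 MI Ctrl library and SNHG15 without MI Ctrl replicate 1 or 2 (adjusted p from 0.0565 to 0.0632), and GAS5 also without WT replicate 1 (adjusted p = 0.0504).

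The loss of SLUG was examined in MDA-MB-231 cells. SNAI2 itself stood at 64.1, 58.2 and 65.1 CPM in the libraries labelled SLUG KO and at 31.0, 21.7 and 34.1 CPM in WT (1.11 ± 0.21, adjusted p = 0.0399). According to the methods the knock-out clones had been checked by ddPCR and immunoblotting. Counts over all exons do not show a small edit in exon 1, and the RNA level was the opposite of a loss, so directions below are those of the libraries labelled SLUG KO. Of 29 members tested 1 was higher and 0 lower by edgeR at an adjusted p under 0.05, against 1.45% of all 17428 genes that were higher and 1.89% that were lower. At an unadjusted p under 0.05 edgeR gave 5 lower members (SNHG14, SNHG17, SNHG31, SNHG12 and SNHG3), and DESeq2 called 0 lower. The shares of all genes for these counts are not given, so no excess can be read from them. SNHG31 averaged 0.615 CPM. The member called higher was SNHG18, at 7.54, 4.997 and 7.09 CPM in WT and 18.3, 16.6 and 17.5 CPM in the libraries labelled SLUG KO. It was 2.65-fold higher with no overlap (1.41 ± 0.22, adjusted p = 0.0179). Without WT replicate 2 it was 1.25 ± 0.12, whereas leaving out any other library of the comparison gave adjusted p from 0.0526 to 0.117 with log2 fold-changes of 1.39 to 1.55.

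Without WT replicate 2 the spread shrank and more members were called: 8 of 30 tested were lower and 1 higher in the libraries labelled SLUG KO, against 14.4% and 16.8% of all 17909 genes. SNHG12 stood at 43.1, 28.7 and 48.6 CPM in WT and at 23.9, 23.3 and 26.04 CPM in the libraries labelled SLUG KO. The groups did not overlap in either version, with -0.72 ± 0.23 and an adjusted p of 0.156 with all libraries, and -0.91 ± 0.099 and 4.34e-06 without that replicate. SNHG17 stood at 50.6, 102.2 and 46.7 CPM in WT and at 34.6, 37.7 and 32.3 CPM in the libraries labelled SLUG KO (-0.93 ± 0.31, and -0.48 ± 0.10 without the replicate). SNHG14, at 1.20 to 1.51 CPM there, had -1.18 ± 0.34 and -1.30 ± 0.30. The other members called lower without WT replicate 2 were SNHG25, SNHG3, SNHG32, SNHG1 and GAS5. GAS5 went from -0.024 ± 0.43 with it to -0.40 ± 0.10 without it. SNHG22, SNHG27 and SNHG28 were not tested with all libraries.

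**Figure D4:**
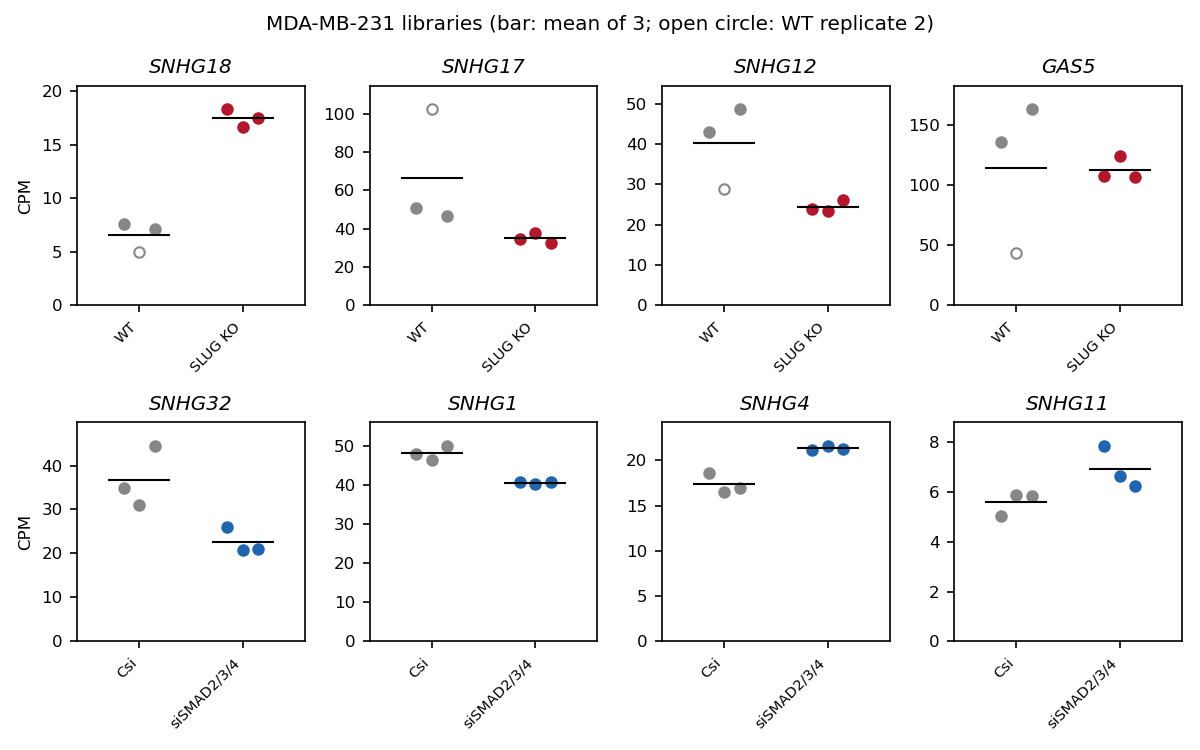
CPM (vertical axes from 0) of 4 members in WT and SLUG KO libraries (top) and of 4 members in Csi and siSMAD2/3/4 libraries (bottom), with a bar at the mean of 3 and an open circle for WT replicate 2. That library is the lowest WT library for SNHG18, SNHG12 and GAS5 and the highest for SNHG17.

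Knockdown of the SMAD proteins that carry TGFβ signals was examined in the siRNA batch. SMAD2 went from 93.0, 91.7 and 88.9 CPM in Csi to 23.4, 24.4 and 24.4 CPM, SMAD3 from 277, 266 and 262 to 172, 165 and 161 CPM, and SMAD4 from 55.9, 54.5 and 57.0 to 17.9, 15.9 and 16.8 CPM. Of 27 members tested 2 rose and 2 fell, against 16.3% of all 17696 genes that rose and 19.7% that fell, and the members' median was -0.071 with 0.004 over all genes. SNHG32 went from 34.8, 30.9 and 44.5 CPM to 25.9, 20.8 and 21.1 CPM, 1.62-fold lower without overlap (-0.70 ± 0.093, adjusted p = 3.56e-07). SNHG1 went from 48.2, 46.4 and 50.2 to 40.8, 40.3 and 41.0 CPM (-0.25 ± 0.054). SNHG4 went from 18.6, 16.5 and 16.96 to 21.1, 21.6 and 21.2 CPM (0.30 ± 0.073, adjusted p = 0.00156). These 3 members kept their call under every alternative run, leaving the flow cell term aside. That term sets siSMAD2/3/4 replicate 3 alone against the Csi libraries, since replicates 1 and 2 carry another flow cell name. SNHG11 went from 5.04, 5.88 and 5.85 to 7.87, 6.66 and 6.26 CPM (0.31 ± 0.12, adjusted p = 0.0436). It was not called with DESeq2 (adjusted p = 0.117), without a low-count filter or without any 1 library other than siSMAD2/3/4 replicate 3 (adjusted p from 0.0516 to 0.28). With the flow cell as a term the log2 fold-change of SNHG11 was 0.16.

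The 23 other members tested were not called after the SMAD knockdown, with log2 fold-changes from -0.29 to 0.16. SNHG9, SNHG22, SNHG25, SNHG27 and SNHG28 did not pass the filter. GAS5 stood at 51.3, 62.7 and 60.9 CPM in Csi and at 62.0, 62.5 and 62.2 CPM after the knockdown (0.091 ± 0.057), and SNHG29 at 126, 137 and 145 and at 127, 130 and 131.1 CPM (-0.076 ± 0.046). Their ranges overlapped. Of the 28 ribosomal protein hosts 7 fell (25%), near the 24.1% of all protein-coding genes tested that fell. Of the 18 snoRNP genes 11 fell (61.1%), among them FBL (-0.31 ± 0.046) and NOP56 (-0.28 ± 0.042). The siRNA files of siSMAD2/3/4 replicates 1 and 2 name another flow cell than the other 4 libraries of this batch.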

How the data were processed

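RNA-seq libraries (24) were analysed, while 16 ATAC-seq samples of the series were not analysed here. According to the methods, libraries were made with a stranded total RNA kit after ribosomal RNA removal, which keeps non-polyadenylated RNA, and mature snoRNAs are shorter than the fragments such libraries favour. As deposited, the files hold whole-number counts per gene, which the authors made with Trimmomatic, STAR (GRCh38) and featureCounts of Subread 2.0.0 over GENCODE v38 exons, with both mates mapped, a mapping quality of at least 30, strand ignored and fragments overlapping several genes left out. That last choice removes host fragments that lie over a snoRNA or an overlapping gene. Symbols, positions and gene types were taken from GENCODE v44, and start sequences from RefSeq (GRCh38.p14). The rule for the members matched 32 genes, and the members and all lists were chosen with earlier results of these data known.

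Counts were tested with edgeR 4.0.16 (filterByExpr, TMM, quasi-likelihood F-test, Benjamini-Hochberg over all genes tested) in R 4.3.3, each comparison on its own 6 libraries and the interaction on 12, without a replicate block. A call is an adjusted p under 0.05, and the SE is the log2 fold-change divided by the square root of F. MI Ctrl, MII Ctrl and WT libraries serve in more than 1 comparison. With 3 against 3 libraries an exact permutation test of a single value cannot go below 0.1, so none was used. Values in every library are given, per comparison, for up to 5 members with the largest rise and 5 with the largest fall among those called with a mean of at least 5 CPM. Beyond that rule, GAS5 in MI-spheres, SNHG18 and SNHG26 in some groups, uncalled members in the SLUG KO and SMAD comparisons and the snoRNAs shown were chosen after their values were seen. The test was checked on simulated counts. Depth was 14124688 to 38406952 counted fragments. The alternatives were DESeq2 1.42.0, size factors, a fit of all genes with a count, a minimum of 10 counts in each library, a replicate block, the flow cell as a term, 1 fit of all 18 libraries of the larger batch, and leaving out each library. A fit of 17 libraries without WT replicate 2 was added after seeing the data, for the TGFβ responses and MII against MI. The fit of 18 libraries was not run for the interaction or the SMAD knockdown. The flow cell term was run for the SMAD knockdown only.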

Additional observations from a re-analysis of the deposited data

Results flagged for a closer look

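The TGFβ responses of 17 members differed between the lines by the interaction test in edgeR (12 libraries, adjusted p under 0.05), the MII response being below the MI response in each. On the log2 scale the difference (MII minus MI) was -1.159 for SNHG5, -1.04 for SNHG19, -1.023 for GAS5, -0.97 for EPB41L4A-AS1, -0.958 for SNHG25 and -0.941 for SNHG4. It was -0.631 for SNHG8, -0.559 for SNHG6, -0.543 for SNHG12, -0.525 for SNHG16, -0.511 for SNHG15 and -0.50 for SNHG1. It was -0.491 for SNHG7, -0.471 for DANCR, -0.327 for ZFAS1, -0.257 for SNHG29 and -0.245 for SNHG3. SNHG25, with a mean of 2.39 CPM over the 12 libraries, had the largest adjusted p but one (0.0274, SNHG3 having 0.0336). Both lost their call without a low-count filter and when some single libraries were left out, SNHG3 with adjusted p from 0.0544 to 0.0745 (MI Ctrl replicate 2, MII Ctrl replicate 1 or 3, MII TGFβ replicate 1 or 3) and SNHG25 from 0.0512 to 0.0758 (MI Ctrl replicate 2, MII Ctrl replicate 3, MII TGFβ replicate 1 or 3).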

How the results depend on the processing

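Of 93 called values of members over the comparisons, 0 reversed among 1257 values under the alternatives run, 1123 kept their call and 134 lost it. Of the uncalled values 39 changed sign under some alternative, none beyond 0.413 on the log2 scale. With all 18 libraries of the larger batch in 1 fit, the counts of members called fell to 3 higher and 1 lower for MI TGFβ, 0 and 8 for MII TGFβ and 5 lower for MII against MI, and SLUG KO gave 2 higher and 5 lower. With 17 libraries, WT replicate 2 left out (chosen after seeing the data), MI TGFβ gave 9 higher and 5 lower and MII TGFβ 0 higher and 18 lower. The shares of all genes called in the fits of 18 and 17 libraries are not given, so these counts have no background beside them. Why the calls went down was not tested. With DESeq2 and without a low-count filter, 1 member was called higher after the SMAD knockdown. The summed level of the members in TGFβ-treated MII-spheres was 1244 CPM with size factors. Leaving out 1 library gave 0 to 1 higher and 0 to 8 lower members for SLUG KO, 1 to 2 and 2 to 4 for siSMAD2/3/4, and 3 to 10 and 7 to 14 for WT against MI, the highest counts of SLUG KO and WT coming without WT replicate 2. Values near 0 changed sign: SNHG1 in MI-spheres was 0.001 with DESeq2, 0.039 with 18 and 0.045 with 17 libraries and -0.083 to 0.004 without 1 library. DANCR in MI-spheres was -0.018 with at least 10 counts in every library and -0.015 to 0.071 without 1 library. In MII-spheres SNHG16 was -0.011 with at least 10 counts in every library, and SNHG6 -0.009 to 0.143 without 1 library.

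Replicate numbers gave no clear sign of pairing, though 3 libraries a group cannot exclude it. Same-numbered libraries deviated from their group means with correlations of -0.409 to 0.255, and in no comparison were all above 0.1. With the replicate block SLUG KO had 0 members called higher (SNHG18 1.43, adjusted p = 0.0623) and the counts of the other comparisons stayed within 1.5 times, at 1 and 20 for MII TGFβ and 0 and 17 for the interaction.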

Other observations

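Unstimulated spheres of the lines differed more in some hosted snoRNA genes than in the hosts. SNORA74A was lower in MII- than in MI-spheres by 4.25 ± 0.079 on the log2 scale and SNORA74D by 2.25 ± 0.12, while their host SNHG4 was lower by 0.18 ± 0.078. SNORA71B, in SNHG17, was lower by 1.90 ± 0.29 beside 0.40 for its host, and SNORA73B, in SNHG3, by 0.99 ± 0.043 beside 0.26. SNORD12C, in ZFAS1, and SNORD104, in SNHG25, did not pass the test there (0.039 ± 0.086 and 0.016 ± 0.10). snoRNA genes took 0.438% to 0.485% of counted fragments in unstimulated MI libraries and 0.172% to 0.21% in MII libraries, and the part of this share in the differences was not tested. The differences between snoRNA and host were not tested either.

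The ribosomal protein hosts also took different shares of the counted fragments. In MI-spheres their share was 3.33% to 3.43% in Ctrl and 4.19% to 4.53% with TGFβ, and in MII-spheres it was 2.31% to 2.37% and 2.55% to 2.61%. In the interaction test 15 of 28 had a smaller response in MII-spheres, with a median difference of -0.20, where the snoRNA host genes had -0.49. Of all protein-coding genes 11.6% had an MII response below the MI response. Among the nonsense-mediated decay genes UPF3B and SMG6 fell by 0.76 ± 0.14 and 0.62 ± 0.074 in MII-spheres. After the SMAD knockdown 4 of 10 fell and SMG1 rose, against 24.1% of all protein-coding genes that fell and 18.7% that rose.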
